A study of Mus musculus with 4 samples.

Results

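The genes that encode the chains of integrins and laminins were read in 4 pools of mouse mammary tumours. They were taken by symbol alone: every gene with a probe set annotated to exactly 1 symbol and named as an integrin alpha chain (Itga), an integrin beta chain (Itgb) or a laminin chain (Lama, Lamb, Lamc). This gave 31 genes of the 12393 with such a probe set, namely 14 alpha chains, 7 beta chains and 10 laminin chains. Each gene was represented by the brightest of its probe sets. The rule itself uses no measured value, though it was set with earlier results of these data known.

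Integrins are cell surface receptors, each built of an alpha and a beta chain, that tie the cytoskeleton to the extracellular matrix or to other cells. Laminins are cross-shaped proteins of an alpha, a beta and a gamma chain that form the scaffold of basement membranes. In the mammary gland, basal and luminal epithelial cells rest on laminin and hold to it through the products of Itga6, Itgb4, Itga3 and Itgb1, whereas leukocytes use a separate set of integrins that share the chain of Itgb2 or pair the chain of Itga4 with that of Itgb7 or Itgb1.

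The mice were nulliparous females on the FVB background, either wild-type (WT) or their age-matched transgenic littermates of the genotype MMTV-PAX8PPARg (here PAX8PPARg), in which a fusion of PAX8 and PPARg is driven by the mouse mammary tumour virus promoter, active mainly in mammary epithelium. All 4 groups received 15 mg of the progestin MP (Depo-Provera) and then 4 weekly oral doses of 1 mg DMBA, a chemical carcinogen. From the day after the last dose they carried 60-day pellets, renewed after 60 days, of placebo or of 2.5 mg RU486 (mifepristone, an antagonist of progesterone and glucocorticoid receptors). Each of the 4 groups (WT with placebo, WT with RU486, PAX8PPARg with placebo, PAX8PPARg with RU486) is 1 Affymetrix array of RNA pooled from 5 mice. The spread between mice is therefore unknown, differences between single arrays carry no test, and precision is limited by having 4 arrays.

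Values are the deposited probe set signals on a linear scale, in the order WT placebo, WT RU486, PAX8PPARg placebo, PAX8PPARg RU486 unless the group is named. Differences are in log2(signal + 16) after each array was centred on its median, so that 1 is a 2-fold difference and low signals are damped. The highest of 27 control probe sets for bacterial genes, absent from mouse RNA, read 9.6, 18.5, 8.3 and 35.3 on the 4 arrays, and a signal that did not exceed its own array's control is described as within background. The median signal was 163.1, 163.0, 188.4 and 170.3, and the 18 spike-in controls of the RU486 arrays were 1.59 (WT) and 2.43 (PAX8PPARg) times those of the WT placebo array. Of the 31 chain genes, 25 were above background on all 4 arrays and 6 on some of them, and 20 reached the median of all genes in their mean signal.

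The tissue label was set against markers of its cell types. On the WT RU486 array the 10 luminal epithelial markers summed to a signal of 6238.5, against 37263.6, 33451.5 and 37034.7 on the WT placebo, PAX8PPARg placebo and PAX8PPARg RU486 arrays, and 2 of the 10 (Elf3, Muc1) were within background there. The 6 basal markers summed to 661.9 on the WT RU486 array, against 10016.7, 5310.1 and 19107.7. The epithelial content that the label mammary tumour implies was thus weakly represented in the WT RU486 pool. In bulk RNA, fewer cells of a type and less RNA per cell cannot be told apart.

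Of the 31 chain genes, 21 differed at least 2-fold in at least 1 of the 4 pairwise comparisons. The share of all genes that did so was not computed, so that count has no reference and the comparisons are given singly. RU486 minus placebo in WT gave 9 chain genes at least 2-fold higher (29.0%, against 7.45% of all 12393 genes) and 7 lower (22.6%, against 8.85%). In PAX8PPARg the same contrast gave 5 higher (16.1%, against 10.6% of all genes) and 5 lower (16.1%, against 7.02%). PAX8PPARg minus WT under placebo gave 5 higher (16.1%, against 4.28%) and 3 lower (9.68%, against 5.5%), and under RU486 it gave 6 higher (19.4%, against 10.8%) and 10 lower (32.3%, against 10.1%). Medians over the 31 were 0.25, 0.07, -0.05 and -0.40 in these comparisons, against 0.01, 0.13, -0.15 and 0.01 over all genes. Without centring, the all-gene medians in PAX8PPARg and under placebo moved to 0.00 and 0.04. The higher share of all 2-fold differences then went from 60.1% to 48.8% for RU486 in PAX8PPARg (46.0% after quantile normalization) and from 43.8% to 60.5% for genotype under placebo, where the chain genes split 6 higher and 2 lower.

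**Figure D1:**
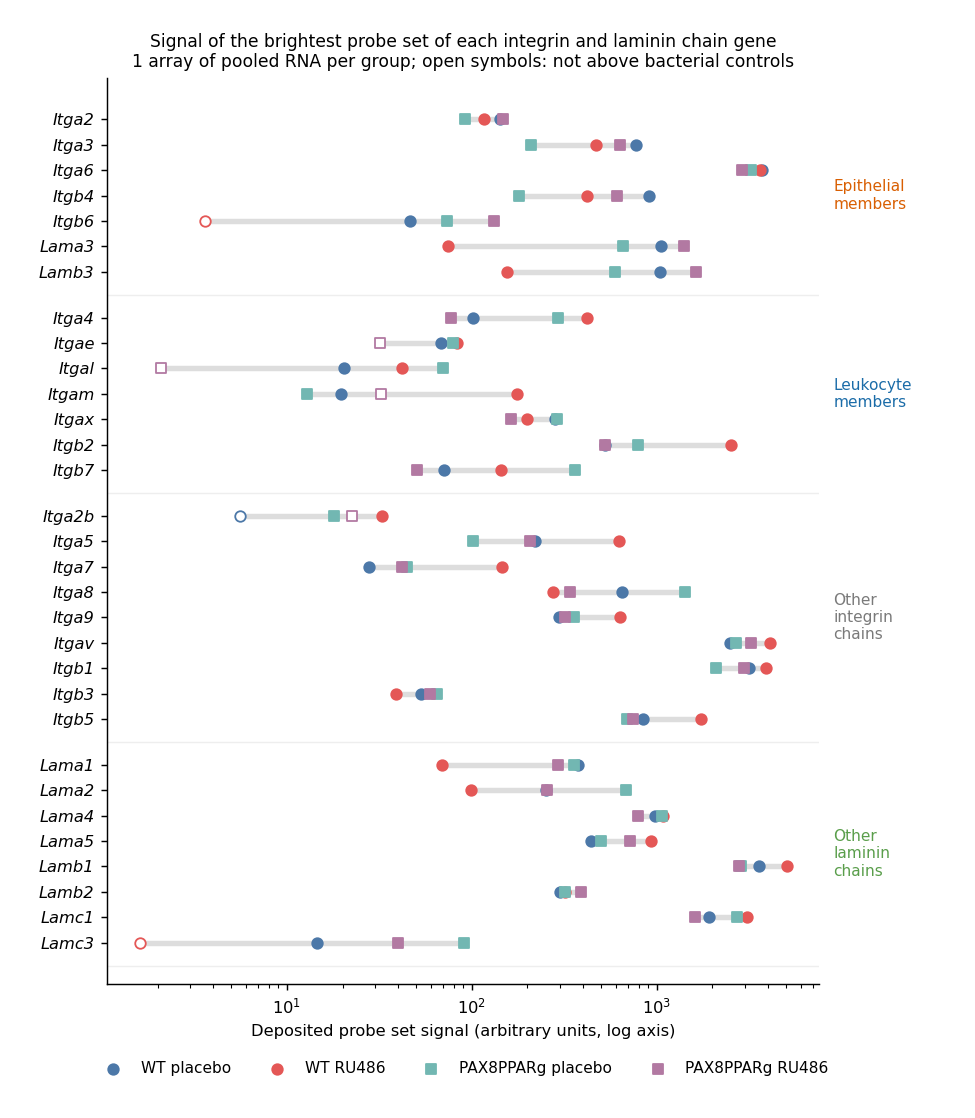
Signal of the brightest probe set of each of the 31 chain genes on the 4 arrays (horizontal log axis, arbitrary units); circles are WT and squares PAX8PPARg arrays, grey bars span the lowest to the highest array, and open symbols are signals within background. Lama3, Lamb3 and Lama1 have their lowest signal on the WT RU486 array, Itgb4 and Itga3 on the PAX8PPARg placebo array, and Itgb2 stands out as highest on the WT RU486 array.

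The epithelial chains came first. The 7 measured chains of the epithelial list were those of the integrin genes Itga2, Itga3, Itga6, Itgb4 and Itgb6 and of the laminin genes Lama3 and Lamb3. RU486 pools had lower signals than placebo pools in WT for 7 of 7, where 6095 of all 12393 genes were lower. At least 2-fold lower were 4 (57.1%, against 8.85% of all genes). In PAX8PPARg 6 of 7 were higher, where 7372 of all genes were, and 4 at least 2-fold (57.1%, against 10.6%). The medians were -1.08 in WT and 1.22 in PAX8PPARg. The WT median was -0.70 when signals under the highest bacterial control were set to it.

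Lama3 and Lamb3 encode the alpha and beta chains of the laminin on which basal epithelial cells and keratinocytes are anchored. Lama3 read 1058.9, 74.5, 654.9 and 1405.9, so the WT RU486 array stood far below the other 3. Its difference for RU486 was -3.57 in WT and 1.22 in PAX8PPARg. Lamb3 read 1035.9, 154.3, 591.0 and 1637.4, with differences of -2.63 and 1.58. Their arrays had the same order, PAX8PPARg RU486 highest, then WT placebo, PAX8PPARg placebo and WT RU486. Between the genotypes, both genes were within 2-fold under placebo (-0.87 for Lama3, -0.98 for Lamb3) and far higher in PAX8PPARg under RU486 (3.92 and 3.22).

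Itgb6 encodes the beta chain of an epithelial integrin that activates latent TGF-beta. It read 46.2, 3.6, 73.7 and 131.7, the second within background. The difference in WT was -1.67, and -0.34 when low signals were set to the highest bacterial control, so its size is not exact. Its second probe set, at 28.3, 6.4, 57.3 and 59.7, had the same lowest array. Under RU486 the PAX8PPARg array exceeded the WT array by 2.86, but by 1.49 with 64 added before the log and by 4.79 with 1 added.

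Itgb4 and Itga3 had another order. The Itgb4 chain, which pairs only with that of Itga6, links laminin to keratin filaments in hemidesmosomes. Itgb4 (chr11:115974725-116008412 on GRCm38.p6) read 911.8, 422.1, 180.9 and 606.5, lowest on the PAX8PPARg placebo array rather than on the WT RU486 array. RU486 minus placebo was -1.08 in WT and 1.79 in PAX8PPARg, and PAX8PPARg minus WT was -2.43 under placebo and 0.45 under RU486. Itga3, whose chain binds the same laminin at cell-matrix and cell-cell contacts, read 771.0, 469.7, 209.9 and 636.4, with the same lowest array. Its RU486 differences were -0.70 and 1.66, and its genotype differences -1.99 and 0.37. The other probe sets of Itga3 gave -0.83 and -0.79 in WT and 1.73 and 0.81 in PAX8PPARg.

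Itga6 hardly differed between the pools. The chain it encodes pairs with that of Itgb4 in basal epithelium and with that of Itgb1 in other cells, among them endothelium. Its signals were 3727.9, 3627.7, 3229.6 and 2872.6, with RU486 differences of -0.04 in WT and -0.03 in PAX8PPARg. Its second probe set gave -0.46 and 0.03. Over the same WT arrays its partner gene Itgb4 differed by -1.08 and the luminal markers by a median of -3.43. Itga2, for the alpha chain of a collagen receptor, read 141.3, 116.6, 92.3 and 146.6 and stayed within 2-fold in all 4 comparisons. The 7 epithelial chains therefore ran from -3.57 to -0.04 for RU486 in WT, whereas the 10 luminal markers ran from -4.86 to -0.90 and the 6 basal markers from -4.76 to -2.16. In PAX8PPARg the range was -0.03 to 1.79 for the chains, beside medians of 0.27 for luminal and 2.29 for basal markers. The part of epithelial content in these differences was not tested.

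Partners of the hemidesmosome divided in WT. Of 6 genes listed, 3 were at least 2-fold lower under RU486 and 2 at least 2-fold higher. The lower ones were the keratin genes Krt14 (-4.76) and Krt5 (-3.14) and Col17a1, a transmembrane collagen of the plaque (-2.86). Dst and Plec, which encode plakins that join intermediate filaments to the plaque and are also made in muscle and other tissues, were higher (1.83 and 1.66), while the tetraspanin gene Cd151 differed by 0.48. In PAX8PPARg, Krt14 and Krt5 were higher (2.57 and 2.26), and Dst and Col17a1 differed by -0.89 and 0.82. Under RU486, PAX8PPARg exceeded WT by 3.76 for Col17a1 and differed by -2.43 for Dst.

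Promoter sequence was available in the RefSeq table for 4 of the 7 epithelial and 4 of the 7 leukocyte chain genes, as windows from 250 bases before to 50 after a transcript start. Windows are shown for Lamb3 and Itga3, and below for Itgam and Itgb7. Lamb3 and Itga3 had RU486 differences of opposite sign in WT and PAX8PPARg, as did Itga2 and Itgb6, the other epithelial genes with a window. Of the windows of Lamb3 and Itga3, those holding a match are shown. The letters TGANTCA, recognised by AP-1 factors, and GAGGAA, a core of sites of ETS factors such as PU.1, were searched on both strands. Matches are in capitals, a match on the opposite strand appears as its reverse complement, and no matches overlap in the windows shown. Lamb3 (chr1:193301744-193302043, plus strand) held 1 GAGGAA, and Itga3, at a transcript start inside the gene (chr11:95069149-95069448, minus strand), held 1 TGANTCA and 1 GAGGAA. Other windows of both genes held neither motif.
Lamb3: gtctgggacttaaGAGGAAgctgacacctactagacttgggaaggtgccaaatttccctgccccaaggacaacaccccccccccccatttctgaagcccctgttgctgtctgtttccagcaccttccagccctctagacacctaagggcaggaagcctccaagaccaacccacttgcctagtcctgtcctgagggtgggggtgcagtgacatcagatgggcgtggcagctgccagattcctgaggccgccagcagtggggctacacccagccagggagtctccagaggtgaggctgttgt
Itga3: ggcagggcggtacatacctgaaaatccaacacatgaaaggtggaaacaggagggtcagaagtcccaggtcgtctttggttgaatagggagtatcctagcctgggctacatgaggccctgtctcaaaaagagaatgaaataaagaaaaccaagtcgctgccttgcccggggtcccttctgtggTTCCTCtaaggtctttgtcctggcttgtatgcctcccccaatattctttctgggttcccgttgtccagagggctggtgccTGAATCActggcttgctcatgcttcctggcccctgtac

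Leukocyte chains pointed the other way. The listed set held Itgal, Itgam, Itgax, Itgad and Itgb2, whose products form the integrins found on leukocytes only, and Itga4, Itgb7 and Itgae, of which 7 were measured and Itgad was not analysed here. For RU486 in WT, 6 of 7 had a higher signal, where 6298 of all 12393 genes did, with a median of 0.89. At least 2-fold higher were 3 (42.9%, against 7.45% of all genes). In PAX8PPARg, 6 of 7 had a lower signal, where 5021 of all genes did, with a median of -0.85. At least 2-fold lower were 3 (42.9%, against 7.02%). Under RU486, 7 of 7 were lower in PAX8PPARg than in WT, where 6074 of all genes were, and 6 at least 2-fold (85.7%, against 10.1%). Itgal, Itgam and Itgae, among the 6, were within background on the PAX8PPARg RU486 array. The median was -1.74, the value of Itgal, or -0.91 with 64 added before the log and -2.32 with 1. With 64 added the PAX8PPARg median for RU486 was -0.53. Under placebo the genotype median was 0.38, which ranged from 0.11 to 0.57 across the settings tried.

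Itgb2 encodes the beta chain shared by these leukocyte integrins (chr10:77530329-77565708 on GRCm38.p6). It read 527.6, 2525.4, 791.1 and 526.1, so the WT RU486 array stood alone. Its difference for RU486 was 2.23 in WT and -0.44 in PAX8PPARg, and for genotype under RU486 it was -2.29. Itgam, for the alpha chain of the complement receptor of macrophages and neutrophils, read 19.7, 176.6, 12.8 and 32.4 and was also highest on the WT RU486 array. Its differences for RU486 were 2.43 in WT and 0.88 in PAX8PPARg, where the RU486 signal was within background. Itgax, for an alpha chain found on dendritic cells and macrophages, did not share that pattern. It read 282.9, 198.1, 289.3 and 162.5 and stayed within 2-fold in all 4 comparisons.

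Itgb7, Itgal and Itga4 were higher in PAX8PPARg than in WT under placebo and lower under RU486. Itgb7, for the beta chain of lymphocyte integrins that bind the mucosal addressin and E-cadherin, read 70.4, 144.3, 359.8 and 50.6, highest on the PAX8PPARg placebo array. Its RU486 differences were 0.89 in WT and -2.36 in PAX8PPARg. Itgal, for the alpha chain that binds ICAMs on T cells and other leukocytes, read 20.4, 42.1, 70.3 and 2.1, the last within background, with differences of 0.68 and -2.12. With low signals set to the highest bacterial control the latter was -0.62. Itga4, for the alpha chain that binds VCAM-1 and fibronectin, read 102.0, 419.1, 291.2 and 77.4, with the WT RU486 and PAX8PPARg placebo arrays above the other pair. Its RU486 differences were 1.88 and -1.58, and its second probe set gave 1.69 and -1.76. For genotype under placebo Itga4 differed by 1.19, and by 0.65 as the mean of its 3 probe sets. Itgae, for the alpha chain by which lymphocytes in epithelia bind E-cadherin, read 67.8, 83.3, 78.8 and 31.8, the last within background.

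Markers of leukocyte types differed among themselves. The 8 markers of all leukocytes summed to 12636.4, 28044.9, 18402.1 and 10676.1 and had medians of 1.21 for RU486 in WT and -0.73 in PAX8PPARg, with 6 of 8 and 0 of 8 at least 2-fold higher. Macrophage markers summed to 10909.1, 39663.3, 10933.1 and 10183.9, with medians of 1.91 and 0.00, and 7 of 8 were at least 2-fold higher in WT, led by Fcgr1 (2.74), C1qa (2.68) and Mrc1 (2.55). In PAX8PPARg the 7 neutrophil markers ran opposite to the leukocyte chains, with 7 of 7 higher under RU486 and a median of 2.14. Of them, 3 (Mmp8, Csf3r, Camp) were within background in the placebo pool, and Mmp8 and Ngp in the RU486 pool. The median is the value of Camp (2.4 and 57.8), so its size is not exact. S100a8, S100a9 and Mmp9, above background in both pools, differed by 3.15, 2.76 and 3.27. Neutrophil medians were 0.09 for RU486 in WT, the value of Ngp, within background in both WT pools. For genotype under placebo the median was -1.74, the value of Csf3r. The 7 T cell markers summed to 362.0, 513.9, 2556.6 and 304.2 and the 5 B cell markers to 68.9, 136.9, 2121.1 and 94.8. The T cell median was 2.20 and the B cell median 3.71 for genotype under placebo, with 7 of 7 and 5 of 5 at least 2-fold higher. On the WT placebo array 3 of the 5 B cell markers and 0 of the 7 T cell markers were within background. The size of the B cell difference is therefore not exact. No marker of these lists was at 0 on any array, though 3 T cell and 5 B cell markers were within background on the PAX8PPARg RU486 array. The part of leukocyte content in the differences of the chains was not tested.

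Among the leukocyte chain genes with a promoter window, GAGGAA occurred in 2 of 4 windows and TGANTCA in 1 of 4. The 4 epithelial genes had 7 windows, of which 3 held GAGGAA and 1 held TGANTCA. The other integrin chains held GAGGAA in 4 of 7 windows and TGANTCA in 1. The other laminin chains held them in 4 and 0 of 4 windows. Of all 32851 promoter windows of this length, 28.3% held GAGGAA and 7.81% held TGANTCA. The windows of Itgam (chr7:128062390-128062689, plus strand), with 3 GAGGAA matches, and of Itgb7 (chr15:102231886-102232185, minus strand), with 1, are shown because these genes had the largest RU486 difference among the leukocyte chains in WT and in PAX8PPARg. A match describes the letters and is no evidence of binding.
Itgam: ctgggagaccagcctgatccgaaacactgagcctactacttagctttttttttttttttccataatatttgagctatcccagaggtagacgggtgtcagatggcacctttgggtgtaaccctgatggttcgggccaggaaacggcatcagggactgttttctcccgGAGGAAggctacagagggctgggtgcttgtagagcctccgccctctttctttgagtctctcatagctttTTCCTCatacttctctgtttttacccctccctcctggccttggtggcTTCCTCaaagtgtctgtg
Itgb7: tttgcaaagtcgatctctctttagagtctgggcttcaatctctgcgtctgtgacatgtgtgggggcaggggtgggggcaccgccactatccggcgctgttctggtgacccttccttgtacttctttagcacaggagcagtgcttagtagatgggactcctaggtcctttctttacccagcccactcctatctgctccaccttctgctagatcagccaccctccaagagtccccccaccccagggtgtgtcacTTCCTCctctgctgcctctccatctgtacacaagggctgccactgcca

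Set side by side, the medians of epithelial and leukocyte chains had opposite signs in each comparison. The epithelial median minus the leukocyte median was -1.97 for RU486 in WT and 2.07 for RU486 in PAX8PPARg. For genotype it was -1.25 under placebo and 2.19 under RU486. The RU486 comparisons share no array with each other, nor do the genotype comparisons, but each RU486 comparison shares 1 array with each genotype comparison. In WT the luminal and all-leukocyte markers had medians of -3.43 and 1.21, beside -1.08 and 0.89 for the epithelial and leukocyte chains. Under RU486 the genotype medians were 0.45 for epithelial chains, 2.96 for luminal markers and 4.41 for basal markers. There Lama3, Lamb3 and Itgb6 were at least 2-fold higher in PAX8PPARg, while Itga2, Itga3, Itga6 and Itgb4 lay between -0.39 and 0.45.

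**Figure D2:**
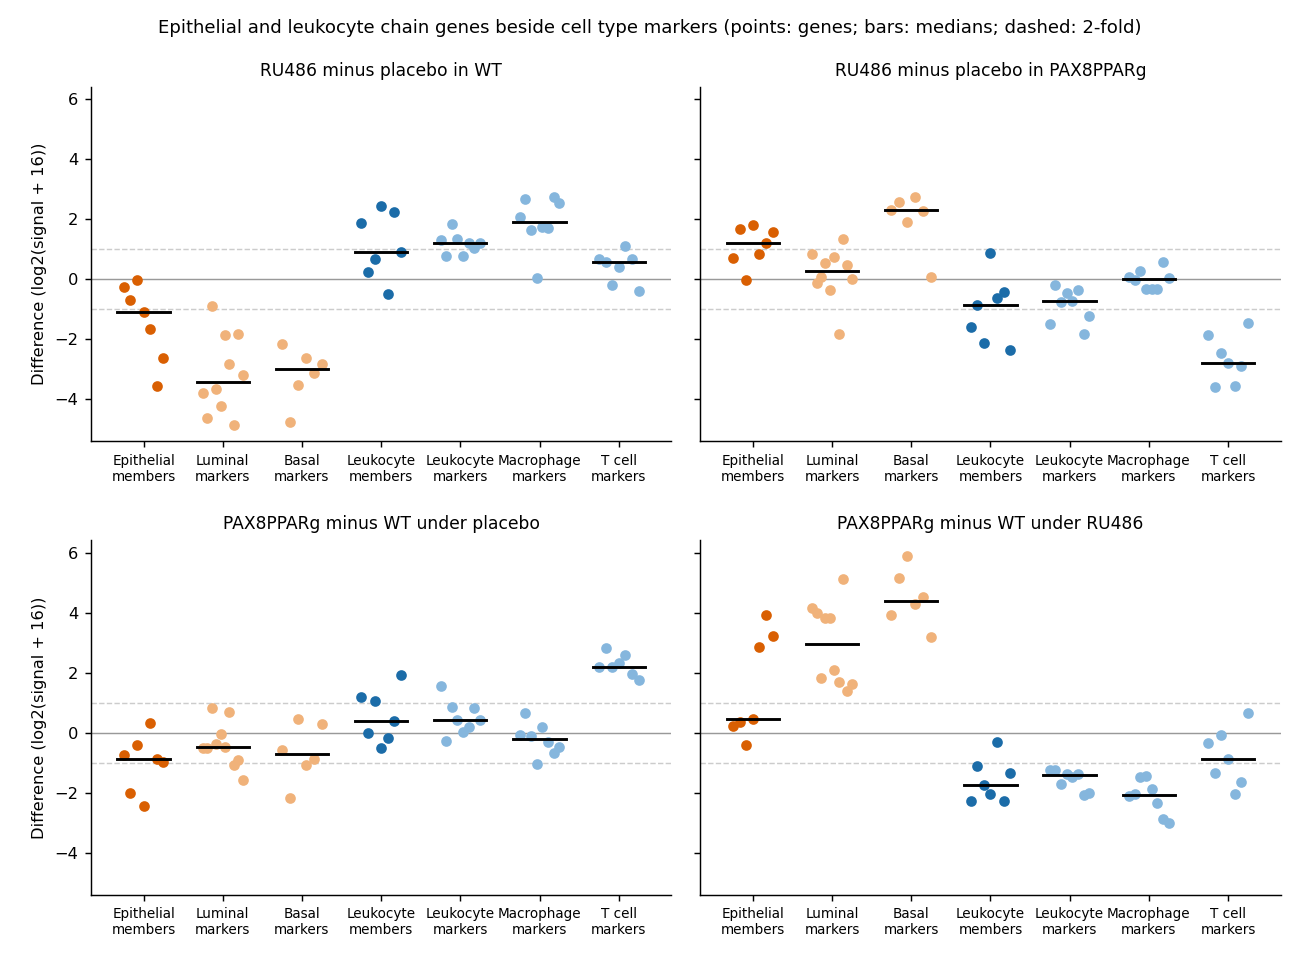
Differences in log2(signal + 16) of the 7 epithelial and 7 leukocyte chain genes beside markers of luminal and basal epithelium, all leukocytes, macrophages and T cells, in the 4 pairwise comparisons; points are genes and bars medians. For RU486 in WT the epithelial chains have a median of -1.08 above luminal markers at -3.43, and the leukocyte chains a median of 0.89 near the all-leukocyte markers at 1.21.

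Subtracting the RU486 effect in WT from that in PAX8PPARg uses all 4 arrays. It was at least 1 on the log2 scale for 6 chain genes (19.4%, against 15.6% of all genes) and at most -1 for 9 (29.0%, against 12.1%). The positive ones were Lama3 (4.79), Lamb3 (4.21), Itgb4 (2.88), Itgb6 (2.52), Itga3 (2.36) and Lama1 (2.05). On the negative side were Itga4 (-3.47), Itgb7 (-3.26), Itgal (-2.80), Itgb2 (-2.67), Itga7 (-1.80), Itgam (-1.55), Lamc1 (-1.30), Itgae (-1.10) and Itga9 (-1.08). Medians were 2.52 for epithelial and -2.67 for leukocyte chains, against 0.15 for all genes. The leukocyte median was -1.25 with 64 added before the log and -1.41 with the 2 leukocyte chains above the median level (Itgb2, Itgax), so its size rests on how low signals are treated.

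**Figure D3:**
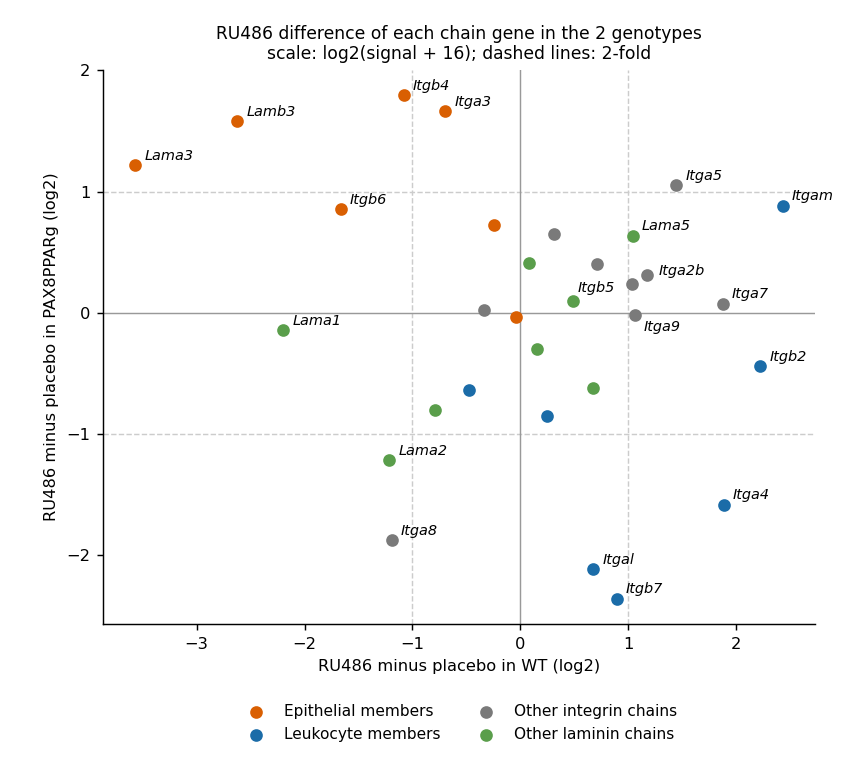
RU486 minus placebo in WT (horizontal) against the same in PAX8PPARg (vertical), in log2(signal + 16), for the 31 chain genes; dashed lines mark 2-fold and genes past it on either axis are named. Epithelial chains lie to the upper left, with Lama3 at -3.57 and 1.22, and Itga4 lies at the lower right, at 1.88 and -1.58.

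At least 2-fold in opposite directions in the 2 genotypes were 4 chain genes (Lama3, Lamb3, Itgb4, Itga4), where 3.08% of all genes were so. At least 2-fold in the same direction were 3 chain genes, Itga5, Itga8 and Lama2, where 2.42% of all genes were so. Itga5 encodes the alpha chain of the fibronectin receptor. It read 219.8, 625.3, 102.1 and 207.2, higher in each RU486 pool than in its placebo pool, with differences of 1.44 and 1.05, and its second probe set gave 1.46 and 1.05. Without centring the PAX8PPARg difference was 0.92. Fn1, the fibronectin gene, read 5744.6, 15118.5, 2904.3 and 8308.0, with differences of 1.39 and 1.64. Both genes were highest on the WT RU486 and lowest on the PAX8PPARg placebo array.

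Itga8 and its ligand gene were lower in both RU486 pools. The Itga8 chain pairs with that of Itgb1, is found on smooth muscle and other mesenchymal cells, and binds nephronectin. Itga8 read 646.2, 273.7, 1413.2 and 338.8, with differences of -1.19 and -1.88. Npnt, the nephronectin gene, read 994.7, 446.7, 516.0 and 209.3, with differences of -1.13 and -1.11. For genotype they parted, at 0.92 under placebo and 0.23 under RU486 for Itga8 and -1.12 and -1.10 for Npnt. Lama2, for the alpha chain of laminin around muscle and other mesenchymal cells, read 251.7, 99.3, 678.8 and 256.3, with differences of -1.21 and -1.22. Its genotype differences were as even, 1.19 under placebo and 1.18 under RU486. Smooth muscle markers had medians of -1.30 in WT and -0.81 in PAX8PPARg for RU486, with Myh11 at -2.30 and -2.45, Mylk at -1.42 and -1.25, and summed signals of 12727.4, 4671.7, 15581.2 and 8059.4. The part of smooth muscle content in the differences of Itga8 and Lama2 was not tested.

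An additive model over both factors sets 2 arrays against 2, with 1 residual degree of freedom. Fitted by limma on the 6197 genes at or above the median level, it called 0.0% of genes higher and 0.0% lower for RU486 at a Benjamini-Hochberg adjusted p of 0.05, and likewise 0.0% each way for genotype. At an unadjusted p under 0.05 were 278 of 6197 genes (RU486) and 273 (genotype), fewer than the 0.05 share expected without effects. Among the 20 chain genes fitted these included 4 for RU486, namely Itga5 (mean difference 1.25 ± 0.30 SE, limma adjusted p = 0.97), Itga8 (-1.53 ± 0.33), Lama2 (-1.22 ± 0.28) and Lama5 (0.84 ± 0.30), and 2 for genotype, Itga5 (-1.38 ± 0.30, limma adjusted p = 0.938) and Lama2 (1.18 ± 0.28). No chain gene passed the adjusted threshold. Genes with opposite differences in the 2 genotypes, such as Lama3 and Lamb3, have that opposition in the residual of this model.

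The question of genotype was then read under each pellet. Under placebo, Itgb4 (-2.43), Itga3 (-1.99) and Itga5 (-1.19) were at least 2-fold lower in PAX8PPARg, and Itgb7 (1.93), Lamc3 (1.62), Lama2 (1.19), Itga4 (1.19) and Itgal (1.06) at least 2-fold higher. Under RU486, Lama3 (3.92), Lamb3 (3.22), Itgb6 (2.86), Lama1 (1.79), Lamc3 (1.6) and Lama2 (1.18) were at least 2-fold higher. The 10 at least 2-fold lower ones were Itgb2 (-2.29), Itga4 (-2.28), Itgam (-2.05), Itgal (-1.74), Itga5 (-1.58), Itga7 (-1.53), Itgb7 (-1.32), Itgb5 (-1.26), Itgae (-1.11) and Itga9 (-1.02). Lamc3, for a gamma chain of laminin, read 14.5, 1.6, 90.6 and 39.7, the second within background, and with low signals set to the highest bacterial control its genotype differences were 0.93 and 0.12. At least 2-fold in opposite directions under the 2 pellets were 3 chain genes, Itga4, Itgal and Itgb7 (2.65% of all genes), and in the same direction 3, Itga5, Lama2 and Lamc3 (1.86% of all genes).

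**Figure D4:**
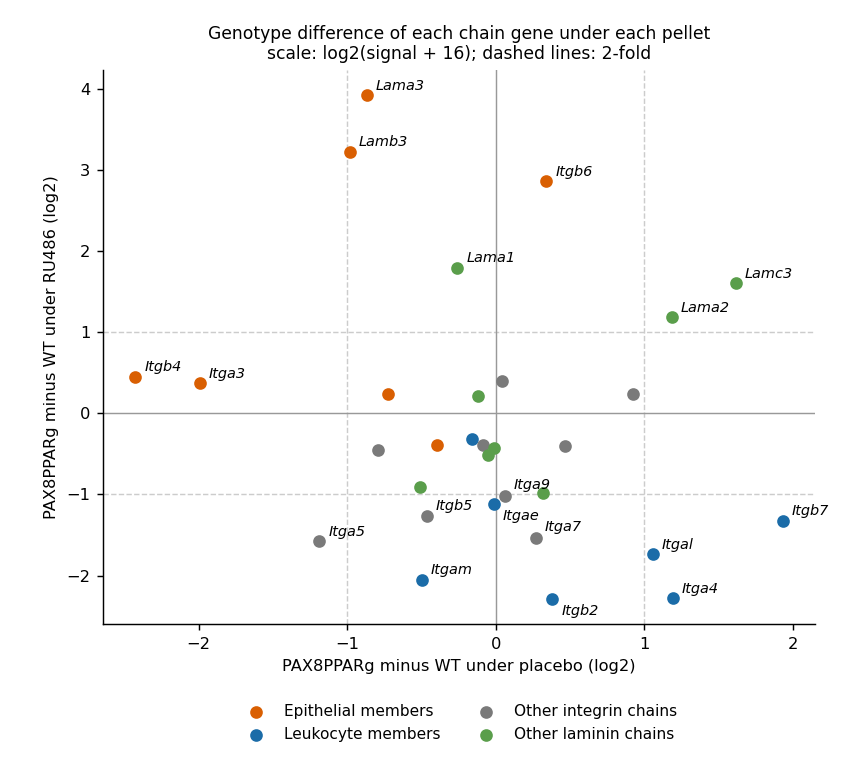
PAX8PPARg minus WT under placebo (horizontal) against the same under RU486 (vertical), in log2(signal + 16), for the 31 chain genes; dashed lines mark 2-fold and genes past it on either axis are named. Itgb4 and Itga3 lie to the left at -2.43 and -1.99, Lama3 and Lamb3 at the top at 3.92 and 3.22, and Itgb2 and Itga4 at the bottom at -2.29 and -2.28.

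Of the 9 measured broadly expressed and stromal integrin chains, 7 had their top signal on the WT RU486 array. The share of all genes with their top signal there was not computed, so that count has no reference. Itga7, for the alpha chain of a laminin receptor of muscle, read 27.9, 145.1, 44.4 and 41.9 (1.88 for RU486 in WT, 0.07 in PAX8PPARg). Itgb5, for the beta chain of a vitronectin receptor, read 842.9, 1738.8, 694.4 and 745.6 (1.03 and 0.23), and its other 3 probe sets gave 0.83 to 1.14 in WT. Itga9, whose chain binds tenascin, read 296.7, 636.5, 355.5 and 318.9 (1.06 and -0.02). Its other probe sets gave 1.15 and 1.25 in WT, and its genotype difference under RU486 was -1.02, or -0.64 as the mean of the 3. Itga2b, for the alpha chain of the platelet fibrinogen receptor, read 5.6, 32.8, 18 and 22.4 and was within background on 2 arrays. Its RU486 difference in WT was 1.18, or 0.00 with low signals set to the highest bacterial control. Its partner gene Itgb3 read 53.1, 38.7, 65.1 and 59.1.

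Chains that pair with many partners differed little by their brightest probe sets. Itgb1, the common beta chain gene, read 3164.0, 3918.5, 2080.5 and 2974.5, with differences of 0.31 and 0.65 for RU486 and -0.79 and -0.45 for genotype. Its other probe sets above background on all 4 arrays gave 0.56 to 1.17 for RU486 in PAX8PPARg. Itgav, the common alpha chain gene of vitronectin-type receptors, read 2501.2, 4095.2, 2693.8 and 3251.4, with differences of 0.71 and 0.40 for RU486. Its genotype difference under RU486 was -0.39, and its other probe sets gave -0.61 and -1.06. Over the 7 measured chains of receptors for the RGD motif, medians were 0.71, 0.31, 0.04 and -0.39 in the 4 comparisons. For RU486 in WT 3 were at least 2-fold higher (42.9%, against 7.45% of all genes) and 2 lower (28.6%, against 8.85%).

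Laminin chains other than Lama3 and Lamb3 split by gene. Lama1, for an alpha chain of embryonic and glandular basement membranes, read 375.9, 69.3, 357.6 and 292.0, with the WT RU486 array far below the rest and differences of -2.20 in WT and -0.15 in PAX8PPARg. Lama5, for the most widespread alpha chain of adult epithelia, read 443.3, 931.0, 502.5 and 718.7 and was higher in the RU486 pools, by 1.04 and 0.64. Lama5 thus ran opposite to Lama3 and Lama1 in WT. Its second probe set gave 0.87 in WT. The vascular chain gene Lama4 read 972.5, 1086.0, 1073.5 and 788.9. The widespread Lamb1, Lamb2 and Lamc1 ranged from -0.98 to 0.67 over the 4 pairwise comparisons. By their brightest probe sets these 4 genes stayed within 2-fold throughout. The other probe sets of Lamb1 gave -1.09 and -0.95 for genotype under RU486. The 8 chains of this group had medians of 0.12, -0.22, -0.03 and -0.11.

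Other basement membrane genes mostly stayed within 2-fold. Of 16 measured, 1 was at least 2-fold higher and 1 lower for RU486 in WT (6.25% each, near the 7.45% and 8.85% of all genes), with a median of -0.08. Agrn, for agrin, read 1632.3, 413.6, 1478.0 and 1866.7 (-1.94 in WT), lowest on the same array as Lama3. Hspg2, for perlecan, read 163.6, 638.7, 162.6 and 296.1 (1.87 in WT). In PAX8PPARg the collagen gene Col4a6 differed by -1.82, and the median was 0.06. Genotype medians were -0.05 under placebo and -0.09 under RU486, where Agrn was higher by 2.07.

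Ligands of integrins outside the laminins had medians of -0.16 and 0.13 for RU486 and -0.62 and -0.37 for genotype, over 15 genes. Tnc, the gene of tenascin C, read 6177.8, 6204.1, 824.2 and 5411.5, with the PAX8PPARg placebo array far below the other 3, as for Itgb4 and Itga3. It differed by 2.82 for RU486 in PAX8PPARg and by -3.07 for genotype under placebo. Cdh1, the gene of E-cadherin, which the integrin with the Itgae chain binds, differed by -3.81 for RU486 in WT. Vcam1, the ligand gene of integrins with the Itga4 chain, read 371.3, 565.4, 824.0 and 241.2, with the same pair of arrays on top as Itga4 and differences of 0.59 and -1.57.

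Adaptors that join integrin tails to actin had 4 of 20 measured genes at least 2-fold higher (20.0%, against 7.45% of all genes) and 0 lower (against 8.85%) for RU486 in WT. In PAX8PPARg 0 were higher (against 10.6%) and 2 lower (10%, near the 7.02% of all genes). Fermt3, for the kindlin of blood cells that activates Itgb2 integrins, read 352.3, 1830.9, 653.7 and 357.1, the same order of arrays as Itgb2 except for its lowest pair, with differences of 2.33 and -0.71. The parvin gene Parvb (1.79), the talin gene Tln1 (1.18) and the paxillin gene Pxn (1.01) were the other 3 in WT. Under RU486, 19 of 20 were lower in PAX8PPARg, 6 of them at least 2-fold (30.0%, against 10.1% of all genes), with Parvb at -2.54 and Fermt3 at -2.37, and the median was -0.73.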

How the data were processed

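The authors deposited probe set intensity values on a linear scale for the 4 arrays. Their summary algorithm was not given in the sources used here. A mean after trimming 2% at each end was 500.15 to 500.20 on every array. Per the labels' protocols, biotin-labelled cRNA was made from RNA pooled in equal amounts from 5 mice per group. Probe sets were named by the platform annotation (20380 with 1 symbol, 691 with several, 1555 with none, 64 controls), and symbols were checked through gene IDs, with 0 changed.

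Signals were taken as log2(signal + 16), centred on each array's median, and the brightest probe set per gene was used. A difference of 2-fold or more was counted without a level filter; limma models with genotype and treatment used the 6197 genes at or above the median level. The fit was also run on simulated data with an additive RU486 effect and noise set from the spread between probe sets. The simulation held no spread between mice and no genotype dependence of the RU486 effect. It therefore does not gauge the fit on these arrays. Alternatives were an added constant of 1 or 64, no centring, quantile normalization, averaged probe sets, the level filter, other list members and, added after seeing the data, a floor at 35.3, the highest bacterial control. The members and gene lists were chosen with earlier results of these data known. Signals on all 4 arrays are given for members above background on at least 1 array that differed 2-fold in a pairwise comparison, and more shortly for others. From other lists, up to 4 genes with the largest difference (3 for markers) are named, with their values in further comparisons; Plec, Cd151, Npnt in PAX8PPARg, Vcam1, Elf3, Muc1 and the platelet genes were named after their values were seen. Of the 6 listed chains without a measured probe set, which were not analysed here, 5 were Itgad, Itga1, Itga10, Itga11 and Itgb8, and the other is not reported here. Promoters came from RefSeq (GRCm38.p6), for 19 of 31 members. Python 3.11.15, numpy 2.4.6, pandas 2.3.3, R 4.3.3 and limma 3.58.1 were used.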

Additional observations from a re-analysis of the deposited data

Results flagged for a closer look

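Some chain genes differed at least 2-fold in opposite directions in 2 groups under the same contrast, each read from 1 array per group, so none of these differences was tested. For RU486 minus placebo, the PAX8PPARg difference minus the WT difference was 4.79 for Lama3, 4.21 for Lamb3, 2.88 for Itgb4 and -3.47 for Itga4. For PAX8PPARg minus WT, the RU486 difference minus the placebo difference was -3.47 for Itga4, which is the same quantity, -2.80 for Itgal and -3.26 for Itgb7. Itgal was within background on the PAX8PPARg RU486 array.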

How the results depend on the processing

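No paired analysis was possible because each group is 1 array and the labels give no replicate numbers, and with 1 array per group none could be left out. No epithelial or leukocyte median changed sign under the settings tried, and 38 single-gene values fell under 2-fold, 20 of them with 64 added, while 390 stayed past it. Of the 390, 38 came from the level filter. That filter drops genes and leaves the differences of those kept unchanged, so these values could not fall. With 64 added before the log, the counts of chain genes at least 2-fold higher and lower were 5 and 5 for RU486 in WT, 2 and 2 for genotype under placebo, and 4 and 6 for genotype under RU486. The same counts over all 12393 genes were 489 and 706, 291 and 381, and 728 and 809. The medians were then -0.70 (epithelial) and 0.63 (leukocyte) for RU486 in WT, -0.53 (leukocyte) for RU486 in PAX8PPARg, -0.91 (leukocyte) for genotype under RU486, and 2.11 (epithelial) and -1.25 (leukocyte) for the difference of the RU486 effects. With 1 added, the leukocyte medians were -1.14 for RU486 in PAX8PPARg and -2.32 for genotype under RU486, and the epithelial median of the difference was 2.99. The level filter leaves 20 chain genes (5 epithelial, 2 leukocyte). For RU486 in WT 5 were higher and 6 lower, turned from 9 and 7, against 5.50% and 8.25% of the 6197 genes kept. In PAX8PPARg 5 were higher and 2 lower, against 5.05% and 5.10%. For genotype under placebo 1 was higher and 3 lower, turned from 5 and 3, against 1.89% and 4.39%. Under RU486 4 were higher and 4 lower, against 7.23% and 10.2%. In both comparisons that turned, all genes kept also had more lower than higher. Medians with this filter were 1.58 (epithelial) and -0.54 (leukocyte) for RU486 in PAX8PPARg. For genotype the leukocyte medians were 0.11 under placebo and -1.30 under RU486. For the difference of the RU486 effects the medians were 2.88 (epithelial) and -1.41 (leukocyte). Without centring, genotype medians under placebo were -0.68 (epithelial) and 0.57 (leukocyte). The mean over probe sets gave 2.17 for the epithelial difference, and the wider epithelial list 0.85 for RU486 in PAX8PPARg. Without Itga4 the leukocyte medians were 0.18 for genotype under placebo and -2.11 for the difference. With signals floored at the highest bacterial control, chosen after seeing the data, the epithelial median for RU486 in WT was -0.70, 3 chain genes were higher for genotype under placebo, and the leukocyte medians were -1.32 for genotype under RU486 and -1.97 for the difference. Quantile normalization moved no count by over 1.5 times and no median by more than the median SD between probe sets of a gene. The limma model called 0 chain genes under each setting tried, with 2 to 4 at an unadjusted p under 0.05 for RU486 and 1 to 3 for genotype. Signals near the bacterial controls (Itgal, Itgam, Itgae, Itgb6, Itga2b, Lamc3) limit the size of their differences.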

Other observations

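Marker lists of further cell types gave these values, in the order RU486 in WT, RU486 in PAX8PPARg, genotype under placebo and genotype under RU486. Adipocyte markers had medians of -0.93, -4.39, 3.14 and -0.19 over 5 genes, with Adipoq highest on the PAX8PPARg placebo array. That was also the highest array for Lama2, Itga8, Lamc3, Itgb3, Itgb7, Itgal and Itgax. Endothelial markers had medians of -0.48, -1.26, 0.56 and -0.14 over 7 genes, led by Vwf and Kdr in PAX8PPARg (-1.96 and -1.76), while the vascular laminin gene Lama4 differed by -0.30 there. Fibroblast markers had medians of 0.26, 0.15, -0.63 and -0.26 over 7 genes.

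Neutrophil markers had a median of 1.05 for genotype under RU486, with S100a9 at -2.68 and Mmp9 at 0.84 for RU486 in WT. Of the 7 markers, 3 were within background on the WT RU486 array and 2 on the PAX8PPARg RU486 array. Itgam, whose chain neutrophils also carry, had its lowest signal on the PAX8PPARg placebo array (12.8), where the neutrophil markers also had their lowest sum (686.1). Skeletal muscle markers had medians of -0.28, 0.20, -2.41 and -1.58 over 7 genes, while Itga7, a muscle integrin gene, differed by 0.27 and -1.53 for genotype. Platelet markers had medians of 0.27, 0.03, -0.33 and 0.22 over 5 genes, of which Gp1bb, Gp9 and Gp5 were within background on all 4 arrays. B cell markers had medians of 0.79 for RU486 in WT, -3.72 in PAX8PPARg and -0.39 for genotype under RU486.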
